A study of Mus musculus with 79 samples.

Results

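The genes described here are 7 extracellular matrix proteins and protease inhibitors, LUM, TIMP1, ECM1, SERPINE2, SERPINB1A, PRG4 and TGM2, out of 20465 genes in a deposited table of mouse T helper 17 (Th17) cell RNA. They were selected on their values in this table, because they are among its largest changes between cultures or under a compound, so their levels and changes in those comparisons are given as a description with no test. All 7 were among the 10672 genes that reached 1 TPM in at least 4 libraries. TPM is a level scaled for transcript length and for library size, so TPM can be compared between genes. T cells were labelled with CFSE, a dye that is diluted at each division, and were cultured in one of 2 cytokine mixtures. Th17p cultures, called pathogenic, received IL1b, IL6 and IL23, and Th17n cultures, called non-pathogenic, received TGFb and IL6. Each was treated with EGCG at 20 µM, DHEA at 50 µM, DMSO or methanol, and RNA was taken from all cells (Total) and from cells sorted after exactly 1 division (Div.1). These 16 groups held 5 libraries each, except Th17p DMSO Div.1 and Th17n DMSO Div.1 with 4, so that 78 libraries were used. The series describes 5 mice per condition and gives no strain, sex or age, and the compounds are named by these letters alone. EGCG and DMSO libraries lay in plate columns 1 to 5 and DHEA and methanol libraries in columns 6 to 10, and each compound was compared with the solvent of its own columns.

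The extracellular matrix is the protein and proteoglycan scaffold around cells, and secreted proteases and their inhibitors set how fast it is broken down. Tissue inhibitors of metalloproteinases block the zinc proteases that cut matrix, while serpins trap serine proteases such as thrombin, plasminogen activators and neutrophil elastase in an irreversible complex. T cells make few structural matrix proteins, but activated T cells secrete some matrix-binding proteins and carry intracellular serpins.

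One library labelled Th17n DMSO Div.1, in well A4, was left out because the neighbouring libraries of its plate row are labelled Th17p. It had 61.1 TPM of Lum and 0.622 TPM of Serpinb1a, whereas the 4 other libraries with its label had 0.408, 0, 0.0488 and 0 TPM of Lum and at least 52.1 TPM of Serpinb1a. With it in its labelled group, the EGCG change of Serpinb1a in Th17n Div.1 moved from -1.3 to -0.18 on the log2 scale, and that of Lum from 0.58 to -0.58. Libraries of the same group correlated at 0.976 to 0.993 over the genes tested (152 pairs). Read depth is unknown, because TPM keep no counts. The 8 T cell markers summed to between 1590 and 2832 TPM in every library. All 6 Th17 markers reached 1 TPM in some library, but the lowest value was 0 for Il23r and Il22 and 0.47 TPM for Ccr6. Of 8 macrophage and monocyte markers found, 1 reached 1 TPM, and the sum of the list was at most 1.69 TPM. Of 9 fibroblast and stromal markers, 2 reached 1 TPM: Pdpn, at up to 134 TPM in Th17n cultures, and Dcn, at up to 5.36 TPM. Col1a1 was at most 0.433 TPM, Col1a2 at most 0.0393 and Col3a1 at most 0.0236. The 6 platelet markers summed to at most 1.34 TPM. Other lists reached higher sums: CD8 T and NK cells at most 31.8 TPM, and neutrophils and mast cells at most 23.3 TPM, mostly Ly6g. The endothelial and epithelial list reached 13.6 TPM, the B cell list 5.11 TPM and the dendritic cell list 2.2 TPM.

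On mm10 (GRCm38), Lum lies at chr10:97565128-97572703, Timp1 at chrX:20870166-20874735, Ecm1 at chr3:95734147-95739569, Serpine2 at chr1:79794197-79861180, Serpinb1a at chr13:32842092-32851185, Prg4 at chr1:150449412-150466165 and Tgm2 at chr2:158116402-158146436, all annotated as protein-coding. Timp1 lies inside the Syn1 gene on the opposite strand, with no exon in common. Exons of Prg4 overlap those of Tpr, and exons of Tgm2 overlap those of Rprd1b, on opposite strands. Tpr reached 29.8 TPM and Rprd1b 36.1 TPM, and reads from the shared stretches cannot be assigned without strand information, which the sources used here do not give. The sequences of 250 bases before the annotated RefSeq start (GRCm38.p6), 5′ to 3′ on the gene's strand, are shown for Timp1, Ecm1 and Serpine2. These are the 3 members with a promoter entry in the reference used, and Lum, Serpinb1a, Prg4 and Tgm2 had none. In all 4 combinations of culture and sort, Timp1 was lower and Ecm1 and Serpine2 were higher with DHEA. Capitals mark matches to the motifs searched on both strands.
Timp1, chrX:20869916-20870165, plus strand: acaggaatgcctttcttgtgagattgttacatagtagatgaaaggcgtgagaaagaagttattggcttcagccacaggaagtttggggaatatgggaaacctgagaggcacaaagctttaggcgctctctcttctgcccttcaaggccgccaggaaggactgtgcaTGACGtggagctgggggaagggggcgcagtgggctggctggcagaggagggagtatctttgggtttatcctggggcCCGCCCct
Ecm1, chr3:95739570-95739819, minus strand: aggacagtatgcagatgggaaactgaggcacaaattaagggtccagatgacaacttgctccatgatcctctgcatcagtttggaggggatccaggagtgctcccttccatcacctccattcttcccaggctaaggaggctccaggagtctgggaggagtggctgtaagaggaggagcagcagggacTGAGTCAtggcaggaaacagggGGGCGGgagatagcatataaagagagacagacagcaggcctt
Serpine2, chr1:79858666-79858915, minus strand: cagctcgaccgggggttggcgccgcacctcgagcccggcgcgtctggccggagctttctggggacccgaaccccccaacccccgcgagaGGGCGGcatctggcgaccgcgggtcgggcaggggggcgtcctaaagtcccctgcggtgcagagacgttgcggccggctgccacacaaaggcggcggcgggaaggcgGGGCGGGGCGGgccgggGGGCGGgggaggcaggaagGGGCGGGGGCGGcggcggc
The motifs were AP-1 (TGANTCA), STAT (TTCNNNGAA), ETS (CCGGAAG), RUNX (TGTGGT), SP1 (GGGCGG), NRF2 (TGACNNNGC) and the cyclic AMP response element core (TGACG). With the base before the start as -1, Ecm1 had an AP-1 match from -64 to -58 and an SP1 match from -42 to -37. AP-1 letters were in 6.75% of 32851 windows of the same length. Timp1 had an SP1 match from -8 to -3 and a cyclic AMP response element core from -84 to -80, letters found in 17.8% of windows. Serpine2 had 6 SP1 matches, 2 of which share a base, and SP1 letters were in 32.7% of windows. A match is a string of letters only. The Serpine2 start used by RefSeq lies inside the gene span given above.

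**Figure D1:**
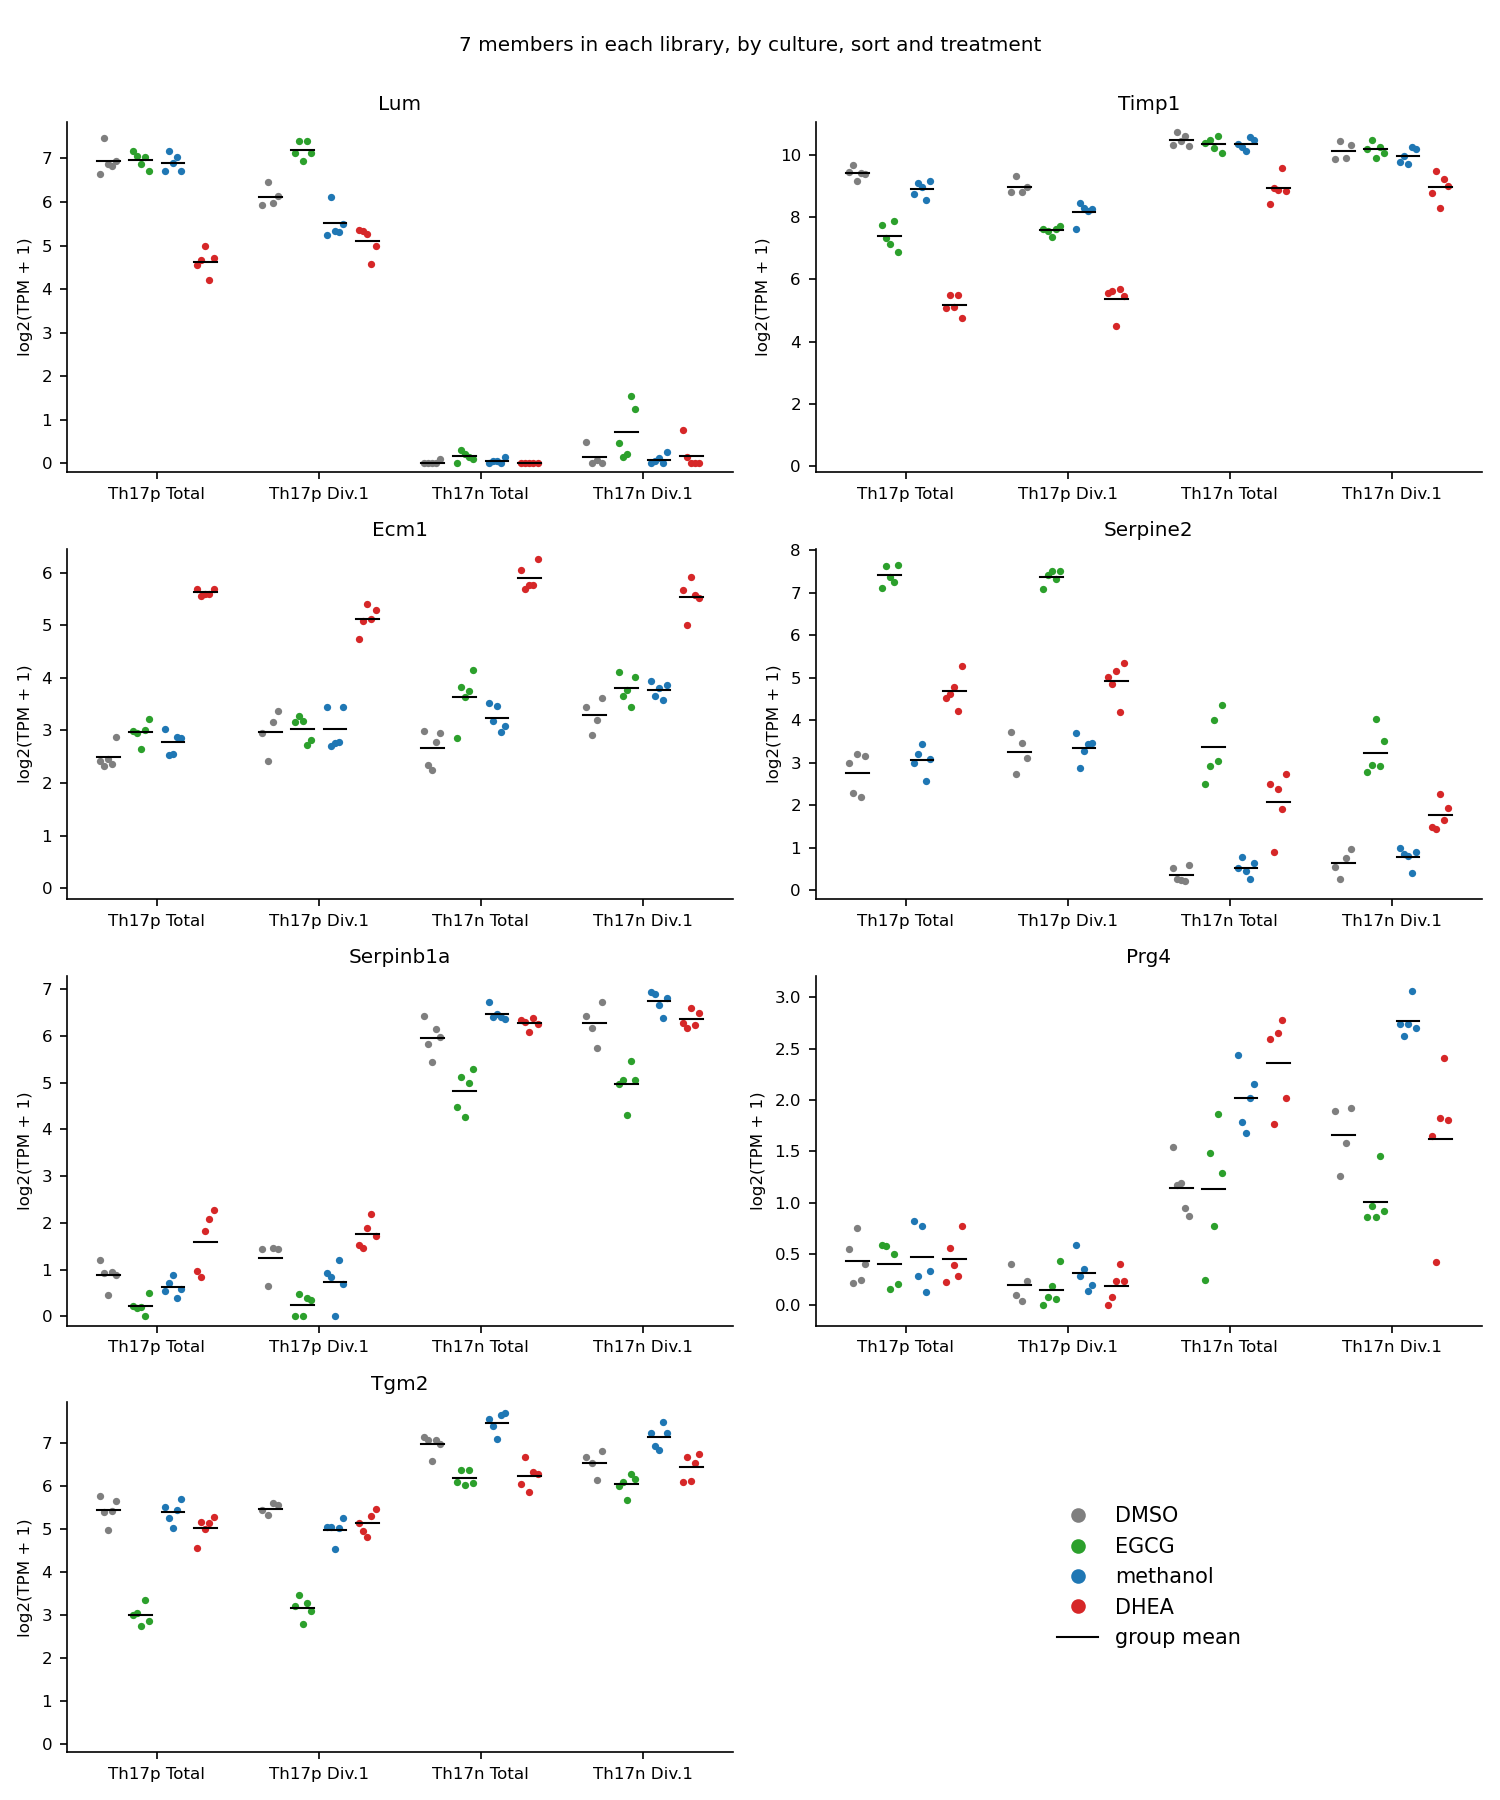
Level of each of the 7 members in every library, as log2(TPM + 1) on the vertical axis, for the 4 combinations of culture and sort on the horizontal axis. Points are libraries, colours are treatments and black lines are group means. Lum is near 0 in all Th17n groups, Serpinb1a and Prg4 are lowest in Th17p groups, and Serpine2 is highest in both EGCG-treated Th17p groups.

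Lum encodes lumican, a small leucine-rich proteoglycan that binds collagen fibrils. It was at a high level in Th17p cultures and near 0 in Th17n cultures. In Th17p Total cells it stood at 99.04, 175, 115, 113 and 122 TPM with DMSO and at 103, 142, 118, 129.5 and 103 TPM with methanol. Each of the 10 Th17n Total solvent libraries had 0 to 0.116 TPM, and 6 of them were at 0, so no Th17n library came near any Th17p library. The difference was 6.88 (SE 0.12) on the log2(TPM + 1) scale in Total and 5.7 (SE 0.13) in Div.1, and because of the added 1 these values understate the ratio. In bulk RNA such as this, fewer cells that express a gene and less of its RNA per cell cannot be told apart. The fibroblast list, whose collagen genes are given above, summed to at most 2.17 TPM in Th17p Total libraries.

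DHEA-treated Th17p Total cells had 22.5, 24.5, 30.8, 17.4 and 25.3 TPM of Lum, a mean of 24.1 ± 4.82 TPM (SD, n = 5) against 119 ± 17.1 with methanol, or 4.95-fold lower. Every DHEA library lay below every methanol library (log2 difference -2.27, SE 0.17, 95% interval -2.61 to -1.93). In Div.1 cells Lum was already lower with methanol, at 37.1, 68.4, 39.7, 38.8 and 44.5 TPM, and DHEA gave 39.99, 39.6, 37.8, 22.7 and 30.97 TPM. These groups overlapped, with a log2 change of -0.40 (SE 0.17, 95% interval -0.74 to -0.060). The Div.1 change minus the Total change was 1.87 (SE 0.24).

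With EGCG the Lum difference lay in Div.1 cells. In Total cells it gave 143, 132, 116, 130.4 and 103 TPM of Lum, inside the range of DMSO (log2 difference 0.020, SE 0.17, 95% interval -0.32 to 0.36). In Div.1 cells EGCG gave 139, 168, 121, 167 and 139.6 TPM against 59.8, 87.2, 61.97 and 69.3 with DMSO. All 5 EGCG libraries exceeded all 4 DMSO libraries, by 2.11-fold (log2 difference 1.07, SE 0.18, 95% interval 0.71 to 1.43). In solvent, Div.1 cells had less Lum than Total cells, with a log2 difference of -1.11 (SE 0.12), and with EGCG Div.1 and Total ranges overlapped. In Th17p Div.1 the fibroblast list summed to 1.83 ± 2.25 TPM (SD, n = 5) with EGCG, at most 5.83 TPM, and to 0.464 ± 0.291 TPM (n = 4) with DMSO. The highest EGCG sum stood far above the EGCG median of 0.818 TPM. Of that list, Dcn was 1.38 ± 2.23 TPM with EGCG and 0.122 ± 0.092 with DMSO (log2 difference 0.74, SE 0.24, adjusted p = 0.00802 by limma). These Dcn levels are low, and the SD with EGCG exceeds the mean, so the difference leans on the highest values. The part of these markers in the Lum values was not tested. The highest Lum values of any Th17n group were also with EGCG, in Div.1 cells at 0.395, 0.1002, 0.156, 1.92 and 1.36 TPM, against 0.408, 0, 0.0488 and 0 with DMSO, and these low values overlapped.

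Prg4 encodes lubricin, a mucin-like proteoglycan that coats joint surfaces and binds CD44. Its level was low throughout, at most 7.34 TPM in any library, and it was higher in Th17n than in Th17p cultures. Th17p libraries ranged from 0 to 0.764 TPM. In Th17n Div.1 cells methanol gave 5.66, 5.18, 5.701, 7.34 and 5.48 TPM and DMSO 2.71, 1.39, 1.98 and 2.79 TPM. Th17n cells with EGCG had 0.809, 0.9504, 0.809, 1.75 and 0.883 TPM in Div.1, of which 1 library lay inside the DMSO range. With DHEA the same cells had 2.15, 0.337, 2.54, 4.32 and 2.49 TPM, all below the methanol libraries, 2.48-fold lower in the mean (log2 difference -1.15, SE 0.21, 95% interval -1.57 to -0.73). In Total cells DHEA gave 5.04, 2.401, 5.29, 5.88 and 3.06 TPM against 4.404, 2.45, 2.202, 3.04 and 3.47 with methanol, which overlap (log2 difference 0.35, SE 0.21, 95% interval -0.074 to 0.77), and the Div.1 change minus the Total change was -1.5 (SE 0.30). With EGCG the Th17n Total libraries had 0.186, 1.802, 0.711, 2.64 and 1.44 TPM, which overlap DMSO. At these low levels the overlap of Prg4 exons with Tpr, at up to 29.8 TPM, limits all Prg4 values.

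Ecm1 encodes extracellular matrix protein 1, a secreted glycoprotein that binds matrix components and is known in helper T cells for a part in leaving lymph nodes. It was low without DHEA and higher with DHEA in all 4 combinations of culture and sort. In Th17p Total cells methanol gave 7.18, 4.76, 4.9, 6.37 and 6.26 TPM and DHEA 50.5, 46., 47.5, 47.1 and 50.2 TPM. The DHEA libraries lay within 5 TPM of each other and were 8.19-fold above methanol in the mean (log2 difference 2.85, SE 0.18, 95% interval 2.49 to 3.2). In Th17n Total cells the values were 10.5, 8.08, 10.04, 6.802 and 7.49 TPM with methanol and 64.9, 50.3, 53.1, 53.4 and 75.2 TPM with DHEA (log2 difference 2.66, SE 0.18, 95% interval 2.3 to 3.01). In Div.1 cells the DHEA levels were 34.3 ± 5.9 TPM (SD, n = 5) in Th17p and 46.4 ± 10.2 TPM (SD, n = 5) in Th17n, with no overlap with methanol, and the log2 changes were 2.1 (SE 0.18) and 1.77 (SE 0.18). The DHEA change was smaller in Div.1 than in Total, with a difference of -0.75 (SE 0.25) in Th17p and -0.89 (SE 0.25) in Th17n. The Th17p change minus the Th17n change in Total was within its error, 0.19 (SE 0.25, 95% interval -0.31 to 0.70).

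The Ecm1 changes with EGCG were small beside those with DHEA. In Th17n Total cells EGCG gave 6.25, 13.1, 11.4, 12.5 and 16.6 TPM against 6.97, 4.07, 3.77, 5.86 and 6.699 with DMSO, and the lowest EGCG library lay inside the DMSO range (log2 difference 0.98, SE 0.18, 95% interval 0.62 to 1.33). In Th17p Div.1 cells the EGCG and DMSO ranges overlapped, with a log2 change of 0.059 (SE 0.19, 95% interval -0.32 to 0.44).

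Tgm2 encodes tissue transglutaminase, a calcium-dependent enzyme that crosslinks glutamine and lysine side chains of matrix and other proteins. It was present in every library, at 5.71 to 53.5 TPM in Th17p and 50.3 to 207 TPM in Th17n cultures. In solvent it was lower in Th17p than in Th17n, with a log2 difference of -1.81 (SE 0.11) in Total. EGCG-treated Th17p Total cells had 6.93, 7.31, 5.71, 9.19 and 6.25 TPM against 53.5, 41.02, 30.3, 41.8 and 49.6 with DMSO, which is 6.11-fold lower with no overlap (log2 difference -2.44, SE 0.16, 95% interval -2.76 to -2.13). Div.1 cells had 8.24, 10.1, 5.96, 8.698 and 7.56 TPM against 42.3, 38.8, 47.3 and 45.9 (log2 difference -2.3, SE 0.17, 95% interval -2.64 to -1.97). In both sorts of Th17p cells, every EGCG library was below every library of the other 3 treatments.

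In Th17n Total cells EGCG gave 66.8, 81.8, 63.6, 81.6 and 65.7 TPM of Tgm2 and DMSO 141, 134, 94.3, 134 and 125 TPM, again without overlap (log2 difference -0.79, SE 0.16, 95% interval -1.11 to -0.48). The EGCG change was larger in size in Th17p, and the Th17p change minus the Th17n change was -1.65 (SE 0.22) in Total and -1.81 (SE 0.24) in Div.1. With DHEA the larger Tgm2 changes were in Th17n. Th17n Total cells with DHEA had 65., 101.2, 57.5, 79.5 and 76.1 TPM against 187, 167, 135, 199.6 and 207 with methanol (log2 difference -1.24, SE 0.16, 95% interval -1.55 to -0.92). In Th17n Div.1 the DHEA values were 67.3, 100.5, 68.8, 91.6 and 107 TPM, all below methanol (log2 difference -0.71, SE 0.16, 95% interval -1.02 to -0.39). Th17p Div.1 cells had overlapping values of 34.6 ± 6.36 TPM with DHEA and 30.99 ± 5.44 TPM with methanol (log2 difference 0.15, SE 0.16, 95% interval -0.16 to 0.47). The solvents differed in Div.1, where methanol had a higher mean than DMSO in Th17n (142.2 and 93.3 TPM) and a lower mean in Th17p (30.99 and 43.6 TPM). The Th17n Div.1 DHEA values overlapped those of DMSO, at 69.1 to 111.7 TPM. The other transglutaminase genes, Tgm1, Tgm3, Tgm4, Tgm5, Tgm6 and Tgm7, were below 1 TPM in all libraries, the highest being Tgm1 at 0.822 TPM.

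Timp1 encodes tissue inhibitor of metalloproteinases 1, which blocks matrix metalloproteinases and also acts as a ligand through CD63. Its group mean was the highest of the 7 members in every group but Th17p Total with DHEA, where that of Ecm1 was higher. Th17n Total cells had 1294, 1724, 1405, 1580 and 1256 TPM with DMSO, and Th17p Total cells 695, 824, 572, 688 and 672 TPM, all lower (log2 difference -1.26, SE 0.13, over both solvents). DHEA-treated Th17p Total cells had 33.2, 44.4, 33.3, 44.3 and 26.04 TPM against 434, 551, 499.5, 378 and 572 with methanol. The groups stood far apart, 13.4-fold in the mean (log2 difference -3.72, SE 0.19, 95% interval -4.09 to -3.35). Th17p Div.1 cells had 46.3, 48.7, 21.7, 50.8 and 43.05 TPM against 196, 348, 311, 291 and 306 (log2 difference -2.79, SE 0.19, 95% interval -3.16 to -2.41). The DHEA library at 21.7 TPM stood apart below the other 4, and without it the change was -2.57.

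In Th17n cells the DHEA values of Timp1 were 340.3, 493, 466, 761 and 455 TPM in Total, against 1296, 1214, 1118, 1519 and 1446 with methanol (log2 difference -1.43, SE 0.19, 95% interval -1.8 to -1.06). Div.1 cells gave -1.02 (SE 0.19). The Th17p change minus the Th17n change was -2.29 (SE 0.26) in Total and -1.76 (SE 0.26) in Div.1. With EGCG, Timp1 was lower in Th17p cells and overlapped DMSO in Th17n cells. Th17p Total cells had 216, 161, 141, 233 and 118 TPM with EGCG (log2 difference -2.02, SE 0.19, 95% interval -2.39 to -1.65), and Th17n Total cells 1334, 1440, 1207, 1553 and 1077 TPM (log2 difference -0.14, SE 0.19, 95% interval -0.51 to 0.24). The summed level of the 6 Th17 markers, most of it Il17f (at most 8147 of at most 8565 TPM), also differed between treatments. In Th17p Total it was 2735 ± 425 TPM (SD, n = 5) with DMSO and 396 ± 131 TPM with EGCG, and 1955 ± 315 TPM with methanol and 212 ± 79.9 TPM with DHEA. In Th17p Div.1 it was 2551 ± 215 TPM with DMSO (n = 4) and 517 ± 48.3 TPM with EGCG, and 1318 ± 324 TPM with methanol and 238 ± 42.3 TPM with DHEA. In Th17n Total it was 7233 ± 711 TPM with DMSO and 6921 ± 519 TPM with EGCG, and 5438 ± 600 TPM with methanol and 1026 ± 272 TPM with DHEA. In Th17n Div.1 it was 4055 ± 392 TPM with DMSO (n = 4) and 8052 ± 561 TPM with EGCG, where Timp1 overlapped DMSO at 1173 ± 188 against 1142 ± 230.5 TPM, and 3817 ± 439 TPM with methanol and 1577 ± 441 TPM with DHEA. The part of these markers' change in the Timp1 values was not tested. Of the relatives of Timp1, Timp2 reached 8.41 TPM, Timp3 0.298 TPM and Timp4 0.133 TPM.

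Serpine2 encodes protease nexin-1, a secreted serpin that inhibits thrombin, plasmin and plasminogen activators. It had the largest log2 change of all 10672 genes under EGCG in Th17p Total cells. The EGCG libraries had 138, 197, 164, 152 and 201 TPM and the DMSO libraries 6.97, 3.89, 8.26, 3.56 and 7.998 TPM. All 5 lay far above all DMSO libraries, with a ratio of means of 27.8 (log2 difference 4.64, SE 0.26, 95% interval 4.12 to 5.15). Div.1 cells gave 134, 169, 179.9, 158 and 182 TPM against 12.1, 5.66, 10.02 and 7.601, a ratio of 18.6 (log2 difference 4.11, SE 0.27, 95% interval 3.56 to 4.65).

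Serpine2 was also higher with EGCG in Th17n cells, where it was under 1 TPM with DMSO. Th17n Total cells had 4.63, 6.54, 15.01, 7.296 and 19.5 TPM with EGCG and 0.436, 0.207, 0.185, 0.158 and 0.511 TPM with DMSO (log2 difference 2.99, SE 0.26, 95% interval 2.48 to 3.51). With 0.1 in place of 1 added to TPM that change was 4.63. DHEA gave a smaller difference. Th17p Total cells had 22.04, 23.6, 26.5, 17.5 and 37.5 TPM with DHEA against 6.98, 8.27, 9.85, 4.99 and 7.57 with methanol, without overlap (log2 difference 1.61, SE 0.26, 95% interval 1.1 to 2.13). In Th17n Div.1 cells EGCG gave 5.88, 6.7, 15.2, 6.63 and 10.4 TPM against 0.476, 0.199, 0.708 and 0.9501 with DMSO (log2 difference 2.6, SE 0.27, 95% interval 2.05 to 3.14). The remaining DHEA changes were 1.56 (SE 0.26) in Th17p Div.1, 1.55 (SE 0.26) in Th17n Total and 0.97 (SE 0.26) in Th17n Div.1. The Th17p change minus the Th17n change in Total was 0.066 (SE 0.36, 95% interval -0.66 to 0.79), a value that depends on the added 1. With 0.1 added in place of 1, the log2 changes in Total were 1.73 in Th17p and 2.58 in Th17n.

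Serpinb1a encodes an intracellular serpin that inhibits neutrophil elastase, cathepsin G and proteinase 3. It was high in Th17n and low in Th17p cultures. Th17n Total cells had 84.4, 55.9, 42.2, 69.6 and 61.99 TPM with DMSO, while Th17p Total cells had 1.304, 0.8899, 0.378, 0.929 and 0.858 TPM, and the cultures differed by -5.46 (SE 0.15) over both solvents in Total and -5.51 (SE 0.16) in Div.1. EGCG-treated Th17n Total cells had 21.2, 33.7, 18.3, 30.6 and 38.4 TPM, all below the DMSO libraries and 2.21-fold lower in the mean (log2 difference -1.13, SE 0.21, 95% interval -1.55 to -0.71). Th17n Div.1 cells had 30.5, 32.2, 18.9, 42.8 and 32.2 TPM with EGCG and 85.3, 71.1, 52.1 and 105 TPM with DMSO (log2 difference -1.3, SE 0.22, 95% interval -1.74 to -0.85). The DHEA and methanol ranges overlapped in both sorts of Th17n cells, with changes of -0.20 (SE 0.21, 95% interval -0.62 to 0.22) in Total and -0.39 (SE 0.21, 95% interval -0.81 to 0.031) in Div.1. In Th17p Total cells DHEA gave 0.945, 0.782, 2.54, 3.25 and 3.82 TPM against 0.465, 0.644, 0.843, 0.305 and 0.507 with methanol, which overlap, and EGCG gave 0.158, 0.126, 0.145, 0 and 0.404 TPM. In Th17p Div.1 cells DHEA and methanol did not overlap, at means of 2.43 and 0.725 TPM (log2 difference 1.02, SE 0.21). EGCG and DMSO did not overlap there either, at 0.197 and 1.44 TPM (log2 difference -1, SE 0.22). With 0.1 in place of 1 added to TPM these Div.1 changes were 1.99 and -2.58. All Th17p values of Serpinb1a thus lay far below the Th17n values of any treatment. Its closest copies, Serpinb1b and Serpinb1c, reached 0.766 and 0.194 TPM. Of the proteases it inhibits, Elane was at most 0.222 TPM, Prtn3 at most 0.845 TPM, and Ctsg was listed at 0 in all libraries.

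**Figure D2:**
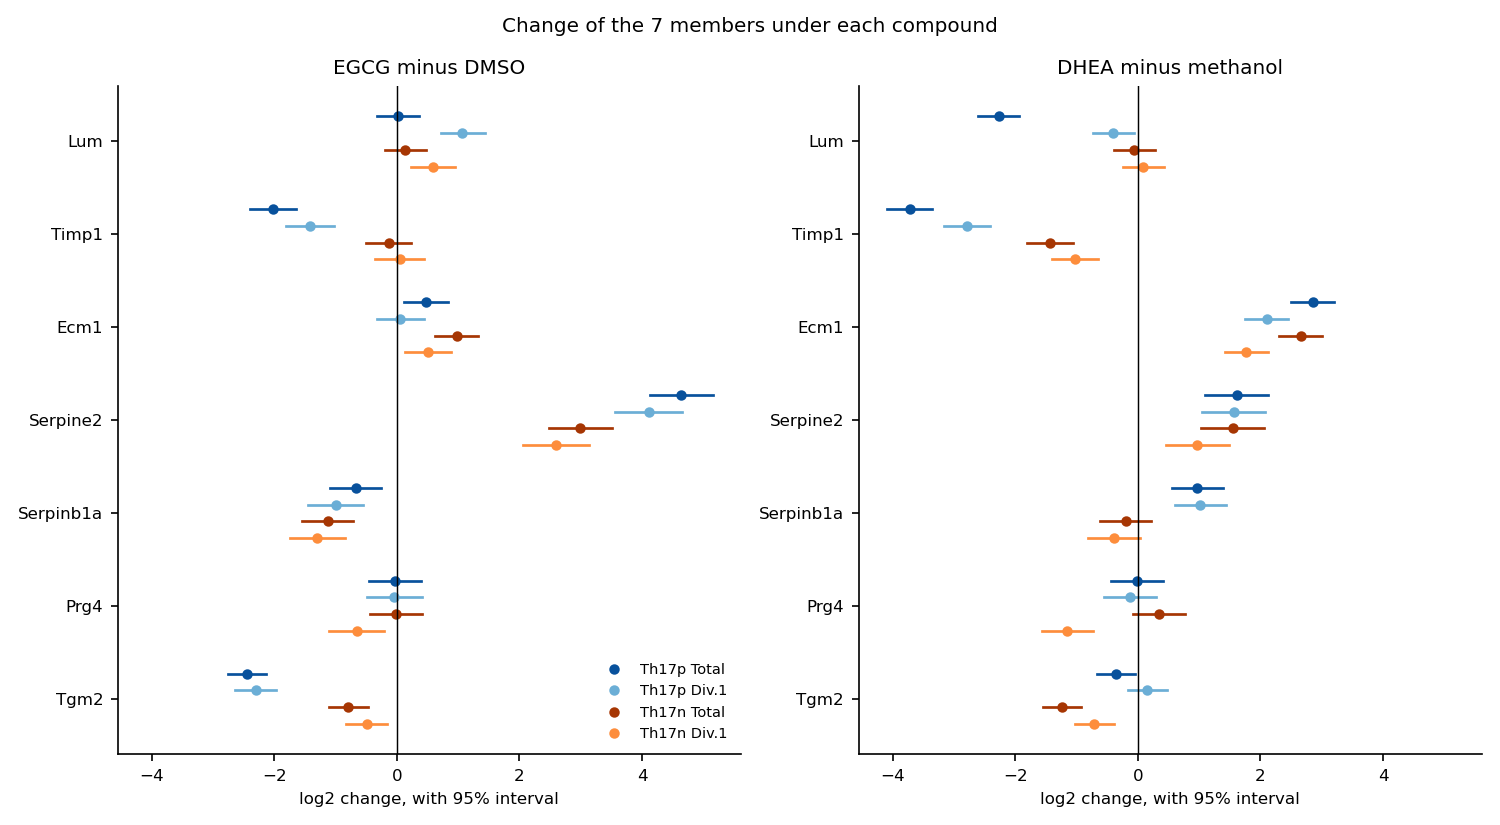
Log2 change of the 7 members under EGCG against DMSO (left) and DHEA against methanol (right), on the log2(TPM + 1) scale. Points are estimates and bars are 95% intervals of the linear model, for the 4 combinations of culture and sort. Serpine2 lies furthest to the right under EGCG in all 4, while Ecm1 lies furthest to the right and Timp1 furthest to the left under DHEA, apart from Th17n Div.1, where Prg4 lies lowest.

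The solvents themselves were compared with a test, limma's moderated two-sided test with Benjamini-Hochberg adjustment over the 10672 genes. The rule that chose the members names no comparison, and the same solvent libraries enter the comparisons with EGCG and DHEA. The p-values are therefore not independent of the choice, and nothing about the members as a group is read from the counts below. Methanol and DMSO libraries lay in different plate columns, so solvent and plate position cannot be told apart. In Th17p Total cells 0 of 7 members passed an adjusted p of 0.05, where 6.83% of all genes did. At an unadjusted p under 0.05 the count there was 1, Timp1 (adjusted p = 0.0882), beside 2047 of the 10672 genes. In Th17p Div.1 cells 2 of 7 passed, beside 4.74% of all genes. Timp1 was lower with methanol, with a log2 difference of -0.83 (SE 0.20, adjusted p = 0.00565), and its 5 methanol libraries, given above, all lay below the 4 DMSO libraries at 451, 647, 450.4 and 504 TPM. The Lum difference was -0.62 (SE 0.18, adjusted p = 0.0302) with overlapping groups, and its adjusted p ran from 0.0055 to 0.565 over the alternatives. The Lum call was lost without the DMSO library of column 2 or 5, or the methanol library of column 6, 8, 9 or 10.

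In Th17n cells methanol was above DMSO for the members that passed. In Th17n Total cells 3 of 7 passed, beside 6.66% of all genes. Prg4 had 4.404, 2.45, 2.202, 3.04 and 3.47 TPM with methanol and 1.904, 1.26, 1.28, 0.922 and 0.828 TPM with DMSO, without overlap, a difference of 0.87 (SE 0.21, adjusted p = 0.00433, and 0.0891 with 0.1 added to TPM in place of 1). Ecm1 was higher by 0.58 (SE 0.18, adjusted p = 0.0325) and Tgm2 by 0.51 (SE 0.16, adjusted p = 0.0382), both with overlapping groups. Over the alternatives their adjusted p ran from 0.02 to 0.134 and from 0.0147 to 0.159. Both calls were lost without the DMSO library of column 3 or the methanol library of column 6, that of Ecm1 also without DMSO column 2 or methanol column 8, and that of Tgm2 also without DMSO column 5 or methanol column 9 or 10. In Th17n Div.1 cells 2 of 7 passed, beside 6.1% of all genes: Prg4, by 1.11 (SE 0.22, adjusted p = 0.000606), and Tgm2, by 0.60 (SE 0.17, adjusted p = 0.0173). Neither gene had overlapping groups there. The adjusted p of Prg4 was 0.0798 with 0.1 added to TPM in place of 1. That of Tgm2 was 0.116 without the DMSO library of column 3 and 0.075 without the methanol library of column 9.

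The difference between cultures in the solvent effect was tested as an interaction. These p-values, too, are not independent of the choice of the members, and the counts describe only. It passed for 1 of 7 members in Div.1, Tgm2, beside 0.862% of all genes, and for 0 of 7 in Total, beside 0.637%. In Total the unadjusted p was under 0.05 for 3 members, beside 818 of all 10672 genes. These were Serpinb1a, Prg4 and Tgm2, with adjusted p of 0.365, 0.298 and 0.401 by limma. In Div.1 cells Tgm2 was lower with methanol in Th17p, at 32.05, 31.8, 22.2, 31.7 and 37.2 TPM against 42.3, 38.8, 47.3 and 45.9, and higher with methanol in Th17n, at 150.1, 121, 113, 178 and 149 TPM against 101.3, 91.2, 69.1 and 112. The responses differed by -1.1 (SE 0.24, 95% interval -1.57 to -0.62), with an adjusted p of 0.00672 from limma and 9.09e-06 to 0.0458 over 24 alternatives. The Th17p Div.1 difference alone was not called (-0.49, SE 0.17, adjusted p = 0.0767 by limma).

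**Figure D3:**
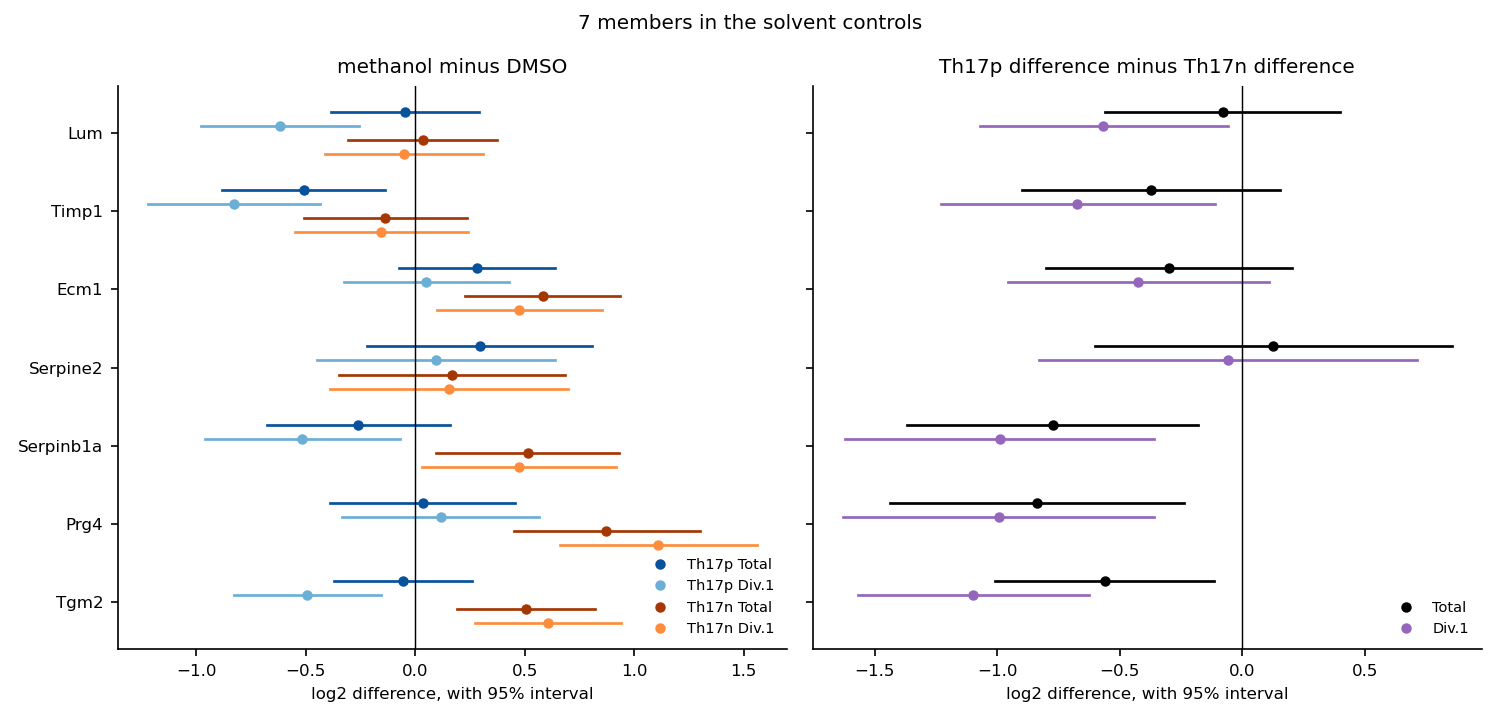
Log2 difference between methanol and DMSO libraries for the 7 members (left) and the Th17p difference minus the Th17n difference (right), on the log2(TPM + 1) scale. Points are estimates and bars are 95% intervals. Tgm2 in Div.1 cells lies below 0 in Th17p and above 0 in Th17n, a difference of -1.1.

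Genes related to the members were taken in 6 lists, with the members left out: other matrix proteins, enzymes that crosslink matrix or modify collagen, serpins, other protease inhibitors, proteases, and receptors. Of 247 genes listed, members included, 89 others reached the level needed for a test. Under EGCG in Th17p Total cells 36 of the 89 were called higher, beside 30.1% of all genes, and 8 lower, beside 14.9%. The median change of the 89 was 0.18, against 0.089 over all genes. In Th17p Div.1 cells the counts were 36 higher and 7 lower, beside 33.7% and 11.9%. Rescaling each library by its median ratio changed these Div.1 counts to 28 higher and 10 lower, and moved the median of all genes from 0.12 to 0.016. In Th17n cells EGCG gave 27 higher and 6 lower in Total, beside 21.7% and 13.5%, and 32 higher and 4 lower in Div.1, beside 28.1% and 6.77%. The rescaled Th17n Div.1 counts were 23 higher and 5 lower, with a median over all genes of -0.0046 in place of 0.11. Over all genes the EGCG calls were 3208 higher and 1586 lower in Th17p Total and 2506 and 2256 after rescaling, 3601 and 1270 against 2430 and 2241 in Th17p Div.1, 2319 and 1441 against 1908 and 1912 in Th17n Total, and 2999 and 723 against 1642 and 1671 in Th17n Div.1.

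Under DHEA the 89 genes gave 44 higher and 17 lower in Th17p Total cells, beside 20.9% and 26.8% of all genes. Their median change was 0.29, against -0.017 over all genes. The counts were 37 higher and 10 lower in Th17p Div.1, beside 18.1% and 19.2%. In Th17n they were 39 higher and 15 lower in Total, beside 20.8% and 25.3%, and 40 higher and 10 lower in Div.1, beside 22.1% and 14.6%. Markers of other cell types also differed with DHEA, some higher and some lower. For CD8 T and NK cells, in Th17p Total their sum was 9.25 ± 1.37 TPM (SD, n = 5) with methanol and 19.4 ± 2.98 TPM with DHEA. Of its 7 genes 2 reached 1 TPM, Cd8b1 and Klrd1, while Cd8a was at most 0.557 TPM and Ncr1 at most 0.084 TPM. The endothelial and epithelial list, mostly Epcam, summed to 1.43 ± 0.607 TPM with methanol and 5.3 ± 1.14 TPM with DHEA in Th17p Total, while Cdh5 was at most 0.0811 TPM. The B cell list, mostly Cd79b, summed to 0.46 ± 0.284 and 1.62 ± 0.561 TPM in Th17p Total and to 1.3 ± 0.283 and 3.73 ± 1.21 TPM in Th17n Total. The neutrophil and mast cell list was lower with DHEA in Th17p Total, at 5.39 ± 2.56 and 1.71 ± 1.36 TPM. In Th17n Total it was 2.37 ± 0.722 and 4.81 ± 2.82 TPM. The fibroblast and stromal list, mostly Pdpn, was lower with DHEA in Th17n Total, at 106 ± 18.7 and 28.9 ± 5.51 TPM. Col1a1 was at most 0.433 TPM and Pdgfra at most 0.505 TPM. The part of these lists in the counts was not tested.

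**Figure D4:**
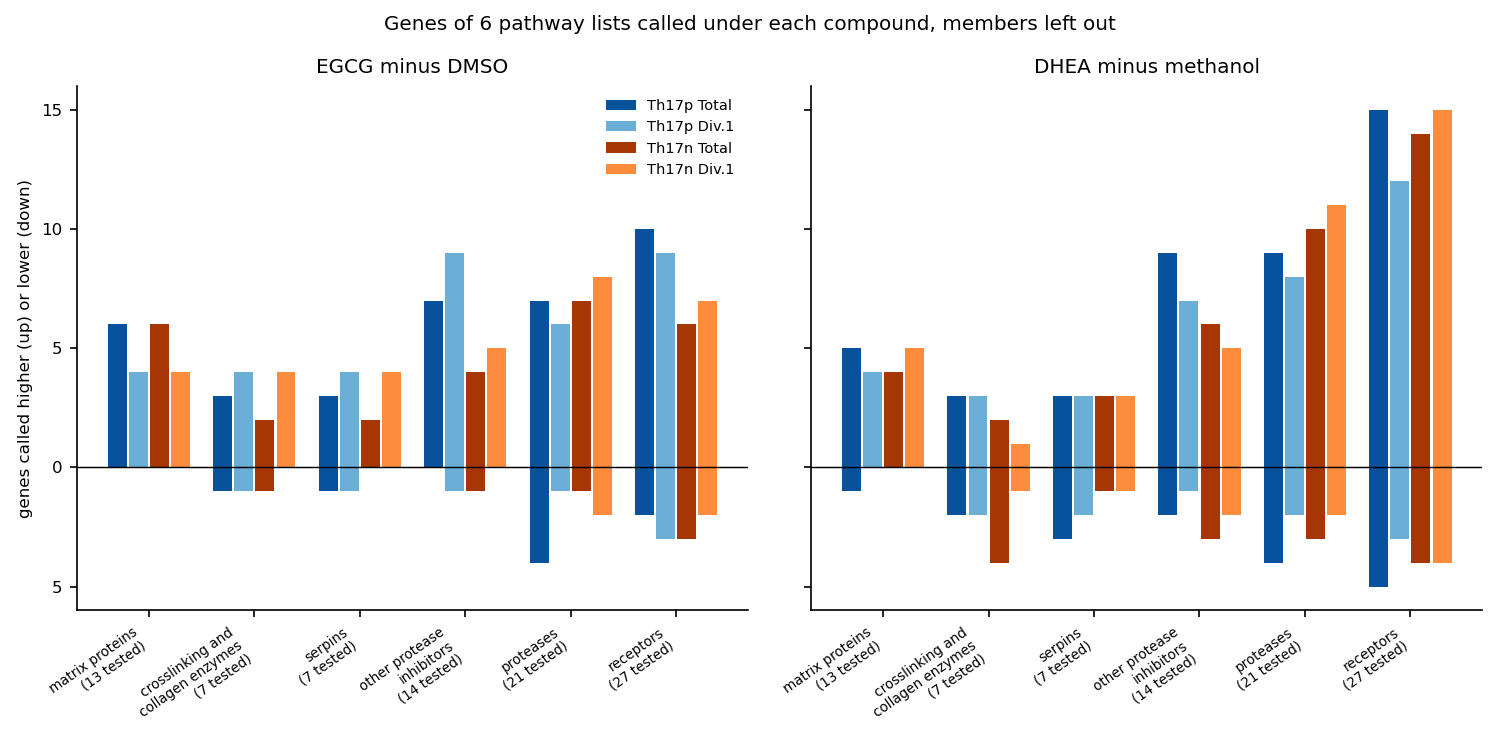
Number of genes of each list called higher (bars up) or lower (bars down) under EGCG against DMSO (left) and DHEA against methanol (right), at an adjusted p under 0.05 in limma, by culture and sort. The number tested per list is given below each name. Calls higher outnumber calls lower in most lists, and under DHEA the enzymes that modify collagen have 4 lower and 2 higher in Th17n Total. Under EGCG calls higher also outnumber calls lower over all genes, by 3208 to 1586 in Th17p Total.

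Among 13 other matrix proteins tested, EGCG raised 6 and lowered 0 in Th17p Total cells, beside 30.1% and 14.9% of all genes. Mfge8, a secreted protein that bridges phosphatidylserine and integrins, rose from 12.8 ± 1.33 to 33. ± 1.83 TPM (SD, n = 5), by 1.3 (SE 0.092, adjusted p = 1.25e-19) in limma. Srgn, which encodes the granule proteoglycan serglycin, was the most abundant of those named and rose by 0.83 (SE 0.081, adjusted p = 1.13e-13). Cyr61, a matricellular protein, rose by 2.34 (SE 0.24, adjusted p = 1.27e-12) from 0.742 ± 0.34 TPM. Under DHEA 5 of the 13 rose and 1 fell in Th17p Total, beside 20.9% and 26.8% of all genes. In Th17n Total 4 rose and 0 fell, beside 20.8% and 25.3%. Fbln1, which encodes fibulin-1, rose by 1.13 in Th17p Total (adjusted p = 3.3e-11, limma) and by 0.64 in Th17n Total (adjusted p = 3e-05). Dcn, the decorin relative of lumican, was not called under DHEA in Th17p Total (-0.17, adjusted p = 0.575). Fn1 was at most 0.0855 TPM.

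Of 7 enzymes that crosslink matrix or modify collagen, EGCG gave 3 higher and 1 lower in Th17p Total cells. The shares of all genes were 30.1% and 14.9%. Plod2, a lysyl hydroxylase, rose from 1.67 ± 0.434 to 8.48 ± 2.14 TPM (log2 difference 1.81, SE 0.15, adjusted p = 4.46e-16). Loxl2, a lysyl oxidase, fell by 0.70 (adjusted p = 0.000115, limma). Under DHEA the list gave 2 higher and 4 lower in Th17n Total cells, beside 20.8% and 25.3% of all genes. There Plod2 fell by 1.24 (adjusted p = 4.24e-10, limma) from 13.1 ± 1.01 to 4.99 ± 0.645 TPM. In Th17p Total the prolyl hydroxylase subunits P4ha1 and P4ha2 rose with DHEA by 0.54 (adjusted p = 1.55e-07) and 0.77 (adjusted p = 0.000129).

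Among 7 other serpins, EGCG gave 3 higher and 1 lower and DHEA 3 higher and 3 lower in Th17p Total cells. The shares of all genes were 30.1% and 14.9% for EGCG and 20.9% and 26.8% for DHEA. Serpinb9, which inhibits granzyme B, rose with both compounds. It stood at 17.4 ± 1.99 TPM with DMSO and 49. ± 4.88 with EGCG (log2 difference 1.44, SE 0.17, adjusted p = 1.46e-10). With methanol it was 19.8 ± 3.69 TPM and with DHEA 58.2 ± 12.1 (log2 difference 1.5, SE 0.17, adjusted p = 3.31e-11). Serpinb6b rose by 1.56 with EGCG (adjusted p = 1.6e-11, limma) and by 1.57 with DHEA (adjusted p = 1.39e-11). In solvent both were higher in Th17p than in Th17n Total cells, by 4.02 and 4.07 (adjusted p = 1.83e-40 and 2.14e-40), whereas Serpinb1a was lower there. Of this list's genes 5 higher and 0 lower were called in Th17p against Th17n Total cells, beside 30.9% and 26.5% of all genes. In Div.1 5 higher and 0 lower were called, beside 34.9% and 25.7%. The 89 genes of all 6 lists leaned the other way, with 25 higher and 41 lower in Total and 24 and 40 in Div.1. In Total the matrix proteins gave 4 higher and 4 lower, and the crosslinking and collagen enzymes 2 and 5. The other protease inhibitors gave 2 and 8, the proteases 5 and 12, and the receptors 7 and 12.

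Of 14 other protease inhibitors, EGCG gave 7 higher and 0 lower and DHEA 9 higher and 2 lower in Th17p Total cells. Over all genes these shares were 30.1% and 14.9% for EGCG and 20.9% and 26.8% for DHEA. Cst7, which encodes cystatin F, an inhibitor of lysosomal cysteine proteases, rose from 65.2 ± 4.1 to 190 ± 15.4 TPM with EGCG (log2 difference 1.53, SE 0.12, adjusted p = 2.84e-17), and in Th17n Total by 1.23 (adjusted p = 8.42e-13, limma). Ctla2a, an inhibitor of cathepsin L-like proteases, rose with DHEA from 10.5 ± 1.84 to 42.4 ± 6.58 TPM in Th17p Total (log2 difference 1.92, SE 0.12, adjusted p = 2.67e-21) and from 337 ± 28.4 to 643 ± 42.4 TPM in Th17n Total (log2 difference 0.93, SE 0.12, adjusted p = 2.69e-09). Spint2, a Kunitz inhibitor of serine proteases, rose by 0.88 with DHEA in Th17p Total (adjusted p = 2.02e-19). Timp2 rose with DHEA in Th17p Total by 0.74 (SE 0.12, adjusted p = 4.95e-07) in limma, whereas Timp1, at a far higher level, was lower with DHEA. Reck, a membrane-bound inhibitor of metalloproteinases, was at most 2.15 TPM.

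Of 21 proteases, EGCG gave 7 higher and 4 lower and DHEA 9 higher and 4 lower in Th17p Total cells. The EGCG counts were near the shares of all genes, 30.1% and 14.9%. For DHEA the shares of all genes were 20.9% and 26.8%. Ctsd, which encodes cathepsin D, rose by 0.81 with EGCG in Th17p Total (adjusted p = 1.01e-20, limma) and by 0.60 in Th17n Total (adjusted p = 2.41e-14). Gzmb, which encodes granzyme B, rose with DHEA in Th17p Total from 7.58 ± 2.13 to 87.1 ± 22.9 TPM (log2 difference 3.35, SE 0.22, adjusted p = 1.64e-20). In Th17n Total it was 0.25 ± 0.221 TPM with DHEA and was not called (0.30, adjusted p = 0.278). Ctss, which encodes cathepsin S, rose with DHEA in Th17n Total by 1.42 (SE 0.089, adjusted p = 1.32e-21). Of the matrix metalloproteinases, Mmp9 was at most 0.225 TPM and Mmp14 at most 0.707 TPM, while Mmp11 rose with DHEA in Th17n Total from 3.61 ± 0.902 to 8.85 ± 2.11 TPM (log2 difference 1.09, SE 0.15, adjusted p = 3.5e-09). The plasminogen activators that Serpine2 inhibits, Plat and Plau, were at most 0.244 and 1.48 TPM.

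Of 27 receptors, EGCG gave 10 higher and 2 lower in Th17p Total cells, beside 30.1% and 14.9% of all genes. DHEA gave 15 higher and 5 lower there, beside 20.9% and 26.8%. In Th17n Total DHEA gave 14 higher and 4 lower, beside 20.8% and 25.3%. Cd44, a receptor for hyaluronan and for Prg4, rose with EGCG from 37. ± 2.43 to 75.3 ± 6.03 TPM in Th17p Total (log2 difference 1.01, SE 0.13, adjusted p = 7.52e-10) and by 0.79 in Th17n Total (adjusted p = 1.06e-06, limma). Sdc4, a heparan sulfate proteoglycan of the cell surface, rose with DHEA by 1.99 (SE 0.17, adjusted p = 1.83e-16) in Th17p Total. Itgb2, the beta chain of LFA-1, rose with DHEA by 0.48 in Th17p Total and 0.82 in Th17n Total (adjusted p = 1.13e-14 and 3.12e-24). Cd63, through which Timp1 acts, was at most 3.87 TPM and rose with EGCG in Th17p Total by 0.96 (SE 0.24, adjusted p = 0.000724) in limma. F2r, the thrombin receptor, was lower in Th17p than in Th17n Total cells in solvent, with a log2 difference of -1.37 (SE 0.071, adjusted p = 2.95e-27), and Lrp1, which clears protease-serpin complexes, was at most 0.466 TPM.

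Div.1 cells were compared with Total cells in solvent, where 19.4% of all genes were called in Th17p and 21.9% in Th17n. The 89 genes gave 14 higher and 7 lower in Th17p and 11 higher and 13 lower in Th17n. After rescaling these were 19 higher and 6 lower, and 12 higher and 10 lower, so that the balance in Th17n turned. Over all genes the Th17n calls went from 619 higher and 1718 lower to 1074 and 1188. Among the members, Lum was lower in Div.1 than in Total in Th17p (-1.11), as was Timp1 (log2 difference -0.59, SE 0.14), while Ecm1 and Prg4 were higher in Div.1 in Th17n (log2 difference 0.58, SE 0.13, and 0.64, SE 0.15). In the solvent comparison, the 89 genes gave 12 higher and 5 lower in Th17p Total (6.83% of all genes called), 6 higher and 2 lower in Th17p Div.1 (4.74%), 11 higher and 1 lower in Th17n Total (6.66%) and 9 higher and 0 lower in Th17n Div.1 (6.1%). After rescaling, the last 3 were 9 higher and 1 lower, 11 and 3, and 8 and 2. Without the methanol library of column 10 the Th17p Total count was 11 in both directions together. The serpin Serpinf1 was among those higher with methanol in Th17p Total (log2 difference 0.94, SE 0.19, adjusted p = 0.000443).

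The genes whose pattern was most like that of each member were found by Pearson's r over the 16 group means of log2(TPM + 1), which share libraries and plate columns, and r is given as a description. Lum was most like Ifih1 (r = 0.989), Mrpl1 and Dtwd1 (both 0.981). Timp1 was most like Ebp (0.966), Il17f (0.957) and Tmem14c (0.931), and the group means of Il17f ran from 171 to 7597 TPM. Ecm1 was most like Tmie (0.972), Tlr1 (0.966) and Arl5c (0.965). Serpine2 was most like Ephx1 (0.984), M6pr (0.981) and Itm2a (0.98). Serpinb1a was most like Sgk1 (0.994), Foxp3 (0.992) and Irf2bpl (0.991), and the group means of Foxp3 ran from 0.0758 to 140 TPM. Prg4 was most like Ndufb11 and Fanci (both 0.95) and Me2 (0.944), and Tgm2 was most like Exosc8 (0.984), Pik3r2 (0.969) and Parp1 (0.96). Among the members themselves, Serpinb1a and Prg4 ran together (0.9), Lum ran against Serpinb1a (-0.981) and Serpine2 against Tgm2 (-0.956). Ecm1 and Serpine2, both higher with DHEA, had an r of -0.0023.

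Ordered by group mean, neighbouring groups mostly overlapped. Of the 15 steps between neighbours, the libraries did not overlap at 2 for Lum, 3 for Timp1, 1 for Ecm1, 2 for Serpine2, 1 for Serpinb1a, 1 for Prg4 and 2 for Tgm2. The Lum steps lay between Th17p Total methanol and Th17p Div.1 DMSO, and between the lowest Th17p group, Total DHEA, and the highest Th17n group, Div.1 EGCG.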

How the data were processed

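PolyA RNA from mouse Th17 cultures was sequenced, and the submitters' processing notes name Trimmomatic, kallisto and the mm10 build, with no versions. The deposited table holds TPM that the authors made per gene symbol, and how transcripts were summed is not given in the sources used here. Column sums were 880077 to 895017 TPM and 9338 to 9845 genes reached 1 TPM per library; counts are not part of TPM, so depth and its precision are unknown. Samples were grouped by their labelled culture, treatment and sort, and the library of well A4, labelled against the layout of its plate row, was not used. Genes with at least 1 TPM in at least 4 libraries were fitted as log2(TPM + 1) over the 16 groups, with 1 residual spread, in limma 3.58.1 (R 4.3.3, empirical Bayes with trend, two-sided, Benjamini-Hochberg). An adjusted p under 0.05 is a call. The fit was tested on simulated data. Figures were drawn with matplotlib 3.10.9 and tables made with numpy 2.4.6 and pandas 2.3.3 in Python 3.11.15. The members, the gene lists and the marker lists were chosen with earlier results of these data known. Named list genes were, per list and family of comparison, up to 3 called genes with the smallest adjusted p and at least 5 TPM in the higher group, plus fixed partners of the members; genes most like a member were the 3 with the highest Pearson r over group means, and the text gives a part of these. Alternatives were a pseudocount of 0.1, no filter, TPM rescaled by the median ratio, well A4 in its labelled group, each comparison's groups alone, a block on plate column, and leaving out each library in turn; the block on the solvent interaction was added after seeing the data. Libraries are separate samples by their labels, described as 5 mice per condition. Promoter windows came from RefSeq (GRCm38.p6) and gene positions from GENCODE on GRCm38.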

Additional observations from a re-analysis of the deposited data

Results flagged for a closer look

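By chance, Dixon's test at the 95% level flags about 1 group in 20 where values are normally distributed. That rate need not hold for groups with values at 0, as for Lum in Th17n. In 10 of 112 groups of member values, 1 library stood apart from the rest by this test. For Lum these were the Th17p methanol Div.1 library of column 7, at 68.4 TPM above the others, and 3 libraries in Th17n cultures at very low levels: DMSO Total column 5 at 0.0785 TPM, DMSO Div.1 column 1 at 0.408 TPM and DHEA Div.1 column 6 at 0.693 TPM. Timp1 was low in the Th17p DHEA Div.1 library of column 8, at 21.7 TPM. Ecm1 was high in the Th17p DMSO Total library of column 5, at 6.31 TPM. Serpinb1a was low in the Th17p DMSO Div.1 library of column 2, at 0.565 TPM, and high in the Th17n methanol Total library of column 6, at 105 TPM. Prg4 was high in the Th17n EGCG Div.1 library of column 4, at 1.75 TPM, and in the Th17n methanol Div.1 library of column 9, at 7.34 TPM.

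The difference between methanol and DMSO libraries in Tgm2 was opposite in sign in Th17p and Th17n Div.1 cells, though the Th17p difference alone was not called (adjusted p = 0.0767, limma). The test of the Th17p difference minus the Th17n difference passed the threshold, with a log2 difference of -1.10 and an adjusted p of 0.00672 in limma. Tgm2 was chosen on values that include these libraries, so this p is not independent of that choice. Solvent and plate position cannot be told apart here.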

How the results depend on the processing

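The member counts in the solvent comparison rest on few libraries and settings. In Th17p Total the count of members called went from 0 to 1 with the groups alone and was 0 without any 1 library. In Th17p Div.1 it went from 2 to 1 with a pseudocount of 0.1, with no filter, with well A4 in its labelled group and with the groups alone, and was 1 to 2 without 1 library. In Th17n Total it went from 3 to 1 with no filter and with the groups alone, and was 1 to 3 without 1 library. In Th17n Div.1 it went from 2 to 1 with the pseudocount of 0.1 and with the groups alone, and was 1 to 2 without 1 library. The count of list genes called between solvents was 8 in Th17p Div.1 and 4 with well A4 and with the groups alone. It was 12 in Th17n Total and 7 with well A4. It was 9 in Th17n Div.1, 18 with well A4 and 1 with the groups alone. Leaving out 1 library gave 11 to 15 in Th17p Total, 6 to 8 in Th17p Div.1, 8 to 14 in Th17n Total and 7 to 12 in Th17n Div.1. The cause was not tested. The Prg4 interaction in Div.1 was called with well A4 (adjusted p = 0.0308, limma) and with the groups alone (adjusted p = 0.0496). One value reversed: Lum under EGCG in Th17n Div.1 went from 0.58 to -0.58 with well A4 in its group. Leave-one-out aside, the other 98 values of the counts stayed within 1.5 times. Depth is unknown.

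Replicate numbers are plate columns, which no label ties to an animal. Deviations from group means correlated at a median of 0.0714 (-0.0444 to 0.315) within a column, over 0.1 in 86 of 266 pairs, and at -0.0149 between columns, over 0.1 in 4 of 1065 pairs. Not every pair passed 0.1, and the samples were not treated as paired, though libraries of a column were more alike. The standard errors and intervals given for the members come from the fit without a column block. They therefore leave this likeness out of account. With a replicate block the list genes called went from 44 to 46 for EGCG and from 61 to 66 for DHEA in Th17p Total, and from 33 to 40 for EGCG in Th17n Total. The Tgm2 interaction in Div.1, blocked as an alternative chosen after seeing the data, stayed called (adjusted p = 9.09e-06, limma). Methanol minus DMSO within a culture could not be blocked, because the solvents use different columns.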
